A study of Homo sapiens with 2 samples.

Results

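The 184 genes described here are the well-counted antisense RNA genes of BHT101, a human thyroid cancer line of the anaplastic type. They were chosen from the count tables as genes of the class antisense, outside chromosomes X and Y, whose counts summed to 200 or more over both libraries. The tables listed 58735 genes, of which 5476 were antisense genes outside X and Y and 2948 of those had at least 1 count. One library came from BHT101 cells overexpressing SETDB2, a member of a family of histone H3 lysine 9 methyltransferases, and 1 library came from control cells of the same line. The sources used here give neither the vector, nor the time after its introduction, nor the strand setting of the counting. Each group held 1 library, so no difference below has a replicate check or a p-value. Intervals are exact 95% Clopper-Pearson counting intervals, which cover counting error only and not the spread between cultures.

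An antisense RNA gene is transcribed from the strand opposite to another gene and overlaps it or starts close to it. Some start from a promoter shared with the opposite gene and run the other way, and others lie within an intron or cross the end of the opposite gene. Best known are KCNQ1OT1, an imprinted RNA that silences neighbouring genes on its own chromosome, and ZFAS1, which hosts small nucleolar RNAs in its introns. Most such RNAs are of low abundance, and many have no assigned function.

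The SETDB2 library held 34053348 counts and the control library 33572025. SETDB2 itself had 1370 counts in the SETDB2 library against 507 in the control, a log2 ratio of 1.43 (1.28 to 1.58). Of the epithelial list, 6 of 6 genes had 10 or more counts in sum, whereas of 8 thyroid markers only PAX8 and FOXE1 were at that level and NKX2-1 and DUOX2 had no count in either library. All 5 fibroblast markers reached 10 counts in sum, as did 2 of 6 leukocyte and 3 of 4 endothelial markers. Summed over each list, the level in the SETDB2 library against the control was 110 against 76.1 CPM for fibroblast, 2.36 against 2.76 for leukocyte and 2.45 against 3.79 for endothelial markers. CDH5 had no count, and single fibroblast genes ran both ways, from COL1A1 at 1.07 to DCN at -0.78 on few counts. The part of these markers in the results below was not tested, and in bulk RNA fewer cells of a type and less RNA per cell cannot be told apart.

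Which bases of an antisense gene were counted was read from the tables. All 761 genes whose exons lie wholly inside exons of opposite-strand genes had 0 counts in both libraries, and so did all 1139 genes covered wholly by exons of the same strand. Among them, AC006064.4 lies inside GAPDH, the glycolytic enzyme with 103887 counts in the SETDB2 library and 89713 in the control, and had 0 counts in each. The protein-coding genes ICAM4, ZNF593 and HYI were also at 0, and 18 protein-coding genes lay wholly inside opposite-strand exons. A 0 for such a gene therefore does not show that its RNA was absent. The counts of the 184 genes came from the bases they share with no other gene's exons, which made up a median of 92.6% of their exonic length and at least 35.0%. Strand made no difference in these cases, so reads from an intron of the opposite gene cannot be told apart from unspliced RNA of that gene, and 74 of the 184 genes had over 50% of their bases there.

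**Figure D1:**
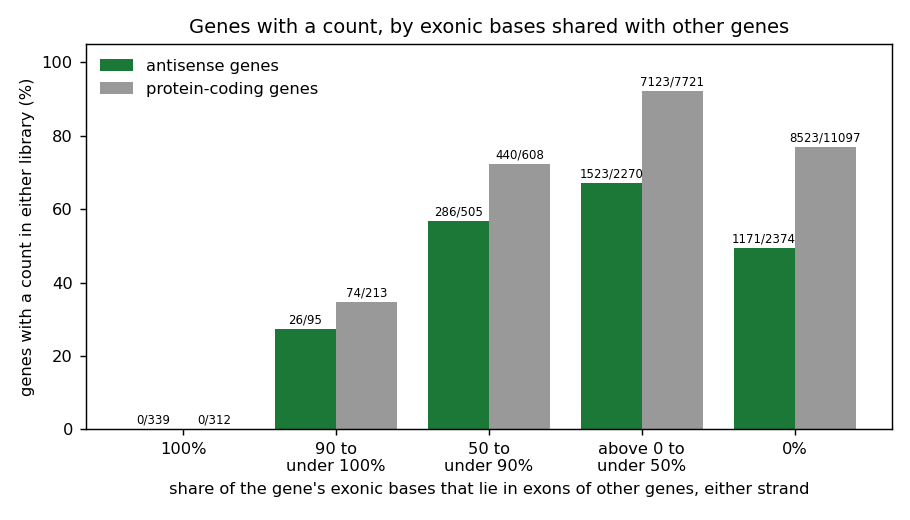
Share of genes with a count in either library (%, vertical axis) by the part of their exonic bases that lies in exons of other genes on either strand, for antisense and protein-coding genes. Bar labels give genes with a count over all genes; none of the 339 antisense or 312 protein-coding genes that were wholly covered had a count.

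The 184 genes held 72345 counts in the SETDB2 library, 0.212% of the total, against 76900 in the control, 0.229%. Their summed counts ran from 200 to 10720 with a median of 388.5, and the 10 highest took 35.8% of all counts on the group. There were 12 genes within 10 counts above the limit and 12 antisense genes within 10 counts below it. The lowest 5 members, SH3BP5-AS1, AC004148.2, AL691432.2, LINC01004 and ZBTB11-AS1, had 200 counts each, and the closest gene left out, AC022509.3, had 199. The median log2 ratio was 0.01 just inside the limit and -0.06 just outside. Of the 184 genes, 82 carry a name built on the opposite or divergent gene and 86 only a clone name, and 93 lie on the plus strand.

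Levels were compared between genes as CPM, counts scaled to library size, per kilobase of unshared exonic bases, called the unshared level here. It had a median of 2.71 in the SETDB2 library and 2.89 in the control. AC099850.3, a gene of 321 exonic bases inside PRR11, was highest with 58.8 in the SETDB2 library and 44.5 in the control, over 224 unshared bases. AC005291.2 followed with 39.6 in the SETDB2 library and 39.7 in the control. In opposite introns lie 69.8% of the bases of AC099850.3 and 82.0% of those of AC005291.2. Their counts there cannot be told apart from unspliced RNA of the opposite gene. FGD5-AS1 had 32.9 in the SETDB2 library and 32.4 in the control, and ZFAS1 27.3 and 34.7 in the same order. The order of neighbours such as these depends on the library, since ZFAS1 stood below FGD5-AS1 in the SETDB2 library and above it in the control. KCNQ1OT1, spread over 91667 exonic bases, was lowest at 0.0733 in the SETDB2 library and 0.0655 in the control. Across the 184 genes the rank correlation of the level between libraries was 0.97, where both libraries share the gene's length and sequence.

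Of the 10 genes with the most counts, 5 had intervals that included 0 and 5 had intervals below 0. AFAP1-AS1, an RNA studied in many carcinomas, had 5319 counts in the SETDB2 library and 5401 in the control, a log2 ratio of -0.03 (-0.08 to 0.03). FGD5-AS1 had 5348 and 5249 counts in the SETDB2 and control libraries, a log2 ratio of 0.02. THAP9-AS1 had 2615 and 2720 in the same order, SNHG7, a host of small nucleolar RNAs, 2412 and 2299, and PSMA3-AS1 1252 and 1186. HCG18, in the histocompatibility complex, had 1985 counts in the SETDB2 library and 2151 in the control, a log2 ratio of -0.12 (-0.21 to -0.03). The other 4 with intervals below 0 were AL365181.3, MSC-AS1, ZFAS1 and GABPB1-AS1, all described with their partners below.

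**Figure D2:**
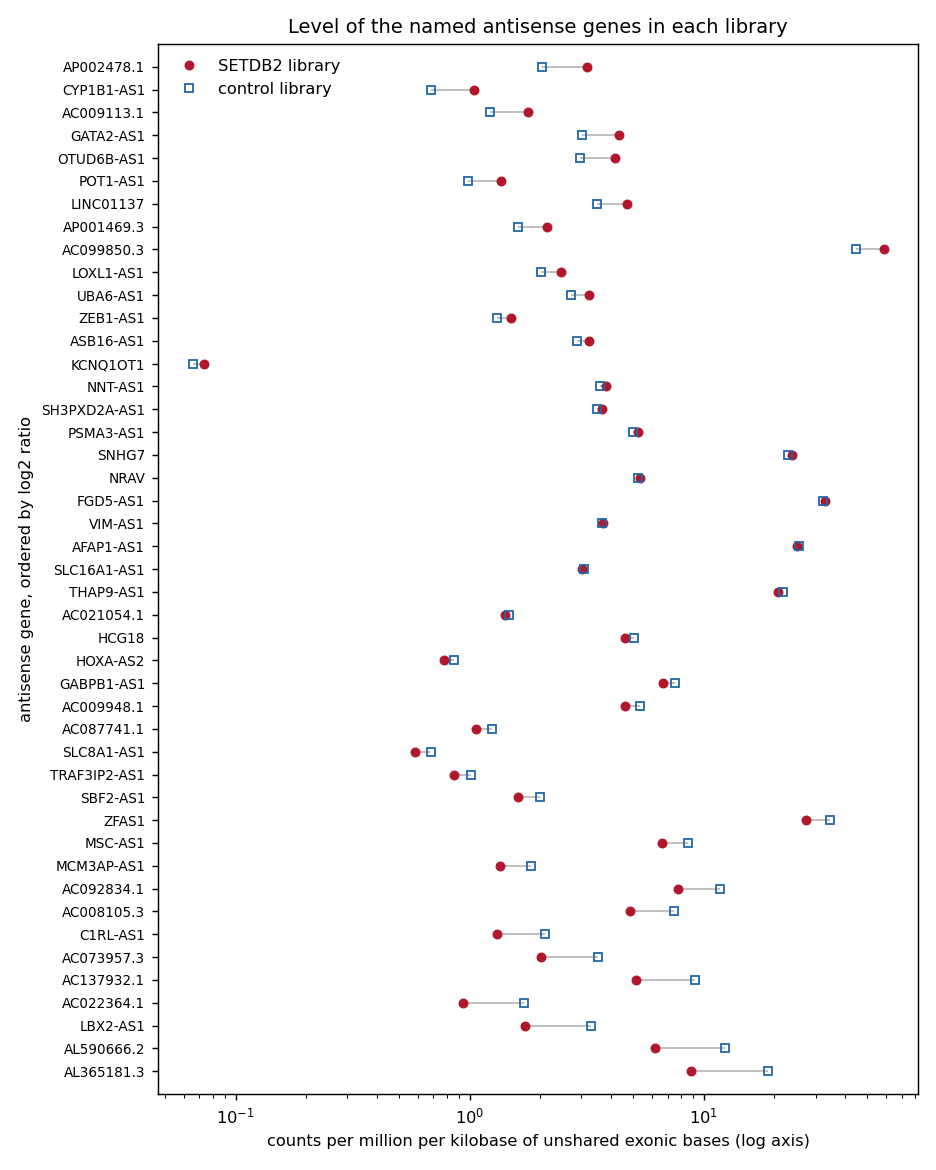
Level of the 45 named antisense genes in CPM per kilobase of unshared exonic bases (log axis), with the SETDB2 library as filled circles and the control library as open squares. Genes are ordered by log2 ratio, from AP002478.1 at the top (0.63) to AL365181.3 at the bottom (-1.09).

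As a group the 184 genes were slightly lower in the SETDB2 library. Their median log2 ratio was -0.07, and 116 of 184 (63.0%) were below 0. Of all 11508 genes outside X and Y with the same summed count, 48.4% were below 0 and the median was 0.01. The 208 lincRNA genes, long RNAs that lie between coding genes, had a median of -0.04, and genes of under 1000 counts one of -0.04, with 54.6% below 0. The 69 genes of the class processed transcript, which are also non-coding, had a median of -0.09, with 60.9% below 0 and intervals 44.9% lower and 15.9% higher, so a shift of this kind was not limited to antisense genes. The interval lay wholly below 0 for 53 members and above it for 17, that is 28.8% lower and 9.24% higher, beside 25.9% lower and 29.1% higher over all genes. Among genes with under 1000 counts the shares were 24.6% lower and 17.6% higher, beside 25.9% and 9.52% of the 147 members under 1000 counts. No member was 2-fold higher and 1 was 2-fold lower, beside 0.269% higher and 0.382% lower among all genes. At 1.5-fold, 2 members were higher and 16 lower, beside 1.16% and 2.29% of all genes and 3.37% and 6.32% of those with under 1000 counts.

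GC content moved with the ratios, across the members and across all genes. GC content was taken from the longest transcript of each gene. The rank correlation of log2 ratio with this GC content was -0.24 across the 184 genes and -0.38 across all 11508. Every gene shares the same 2 libraries. The median ratio was -0.01 in the 46 members with the lowest GC and -0.10 in the 46 with the highest. With the trend over all genes removed, the members' median was -0.10. Its part in the shift was otherwise not tested.

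**Figure D3:**
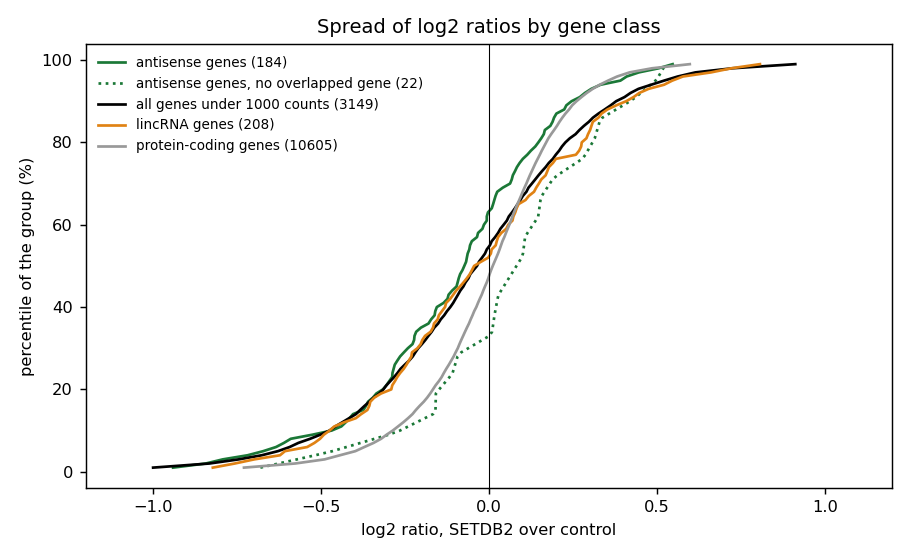
Percentile (vertical axis, %) against log2 ratio, SETDB2 over control (horizontal axis), for the 184 antisense genes, the 22 of them that overlap no opposite-strand gene, and 3 other classes with 200 or more counts. The curve of the 184 lies left of the others at its middle (median -0.07), and that of the 22 lies right of it (median 0.08).

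The overlap with the opposite gene took 4 forms. In 65 head-to-head pairs the 5′ ends overlap, in 40 tail-to-tail pairs the 3′ ends do, 44 antisense genes lie inside the partner and 13 enclose it, while 22 overlap no opposite-strand gene in this annotation. The partner, taken as the overlapped opposite-strand gene with the highest count, was protein-coding in 156 of 162 cases. Median log2 ratios were -0.09 head-to-head, -0.06 tail-to-tail, -0.07 inside the partner and -0.22 for the 13 that enclose it. The 22 genes with no overlapped gene had a median of 0.08, with 15 of 22 above 0. Members with 10% or more of their bases in opposite exons had a median of -0.14 (n = 67), and those with less one of -0.05 (n = 117). The 53 members with no base in opposite exons had a median of 0.01, with 47.2% below 0. GC content differed too, with medians of 52.2% at 10% or more and 46.4% below it, and with the GC trend removed the median ratios of these classes were -0.15 and -0.06. With that trend removed, the 53 members had a median of -0.01.

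The lowest member was AL365181.3, the only member past 2-fold. It is annotated as a single exon of 3222 bases on chromosome 1 (GRCh38 chr1:156641666-156644887, minus strand), inside BCAN, which encodes the brain proteoglycan brevican. It had 861 counts in the SETDB2 library and 1827 in the control, a log2 ratio of -1.09 (-1.21 to -0.97). BCAN had 126 counts in the SETDB2 library and 247 in the control, a log2 ratio of -0.97 (-1.30 to -0.66). AL590666.2, a second antisense gene that runs into BCAN from its far end, had 85 and 167 in the same order, a log2 ratio of -0.98 (-1.38 to -0.60). The lincRNA AL365181.2, which lies beside BCAN on the minus strand, had 50 counts in the SETDB2 library and 109 in the control, a log2 ratio of -1.12 (-1.64 to -0.64). All 4 genes were thus lower in the SETDB2 library by about the same factor. The next genes on either side with at least 50 counts in sum were not. NES, which encodes the intermediate filament nestin, had a ratio of 0.18, GPATCH4 one of 0.06 and NAXE one of 0.04.

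More counts fell on AL365181.3 than on BCAN, but 89.8% of its bases lie in BCAN introns. Its counts cannot be told apart from unspliced RNA of BCAN. AL365181.3 had an unshared level of 8.78 in the SETDB2 library and 18.7 in the control, 10.6 times that of BCAN averaged over both. It held 87.2% (85.0 to 89.3) of the pair's counts in the SETDB2 library and 88.1% (86.6 to 89.5) in the control, so the shares overlapped. Along the RNA, the first 2612 bases and the last 282 lie in BCAN introns and 328 between them lie in BCAN exons. The stretch at the first of these edges, where the bases that could be counted for it alone end, is shown from the GENCODE 29 transcript for GRCh38 chr1:156642246-156642365, minus strand, 5′ to 3′. Capitals mark the 90 bases that AL365181.3 holds alone and lower case the first 30 that it shares with a BCAN exon.
AL365181.3: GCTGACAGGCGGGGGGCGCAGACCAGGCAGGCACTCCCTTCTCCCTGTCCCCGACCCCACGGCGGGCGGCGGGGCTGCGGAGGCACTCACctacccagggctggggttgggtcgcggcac

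**Figure D4:**
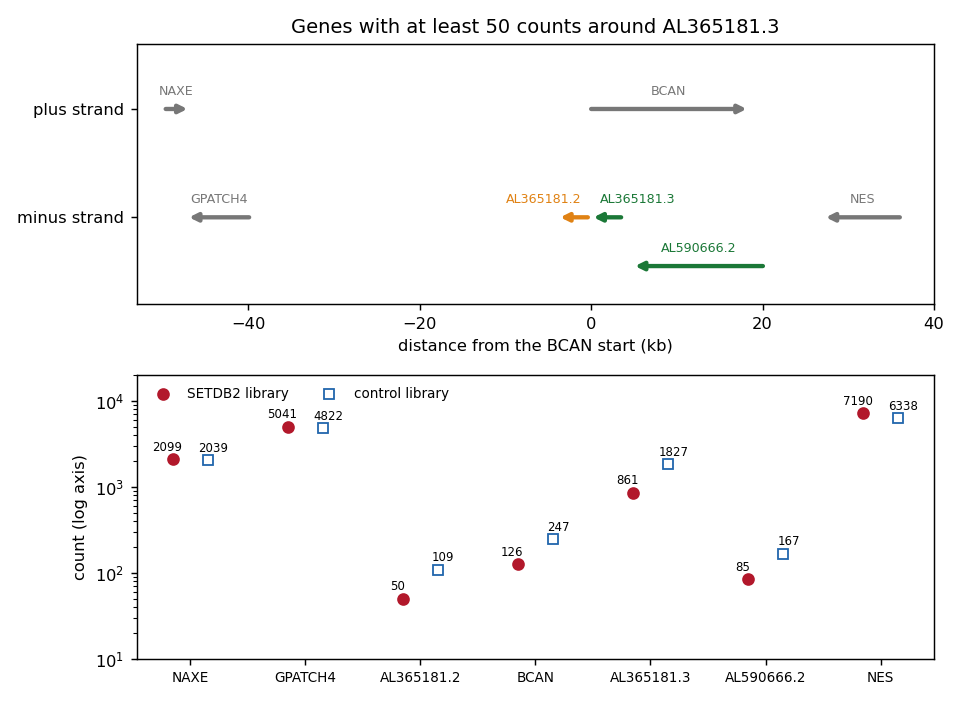
Top, genes with at least 50 counts in sum around AL365181.3 by strand and distance from the BCAN start (kb), with arrows pointing in the direction of transcription. Bottom, their counts in the SETDB2 library (filled circles) and the control library (open squares) on a log axis, where AL365181.2, BCAN, AL365181.3 and AL590666.2 are lower in the SETDB2 library and NAXE, GPATCH4 and NES are not.

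At other loci too, an antisense gene and its head-to-head partner stood on the same side. LBX2-AS1 had 84 counts in the SETDB2 library and 160 in the control, a log2 ratio of -0.93 (-1.33 to -0.55). LBX2, a homeobox gene, had 20 counts in the SETDB2 library and 46 in the control, a log2 ratio of -1.19 (-2.04 to -0.42), on few counts. Of their neighbours, TTC31 had a ratio of -0.06 and PCGF1 one of -0.06, whereas MOGS was at -0.48, WBP1 at -0.37 (-0.67 to -0.08) and LOXL3 at -0.68 (-1.11 to -0.27). CYP1B1-AS1 had 226 counts in the SETDB2 library and 147 in the control, a log2 ratio of 0.61 (0.31 to 0.92). CYP1B1, a cytochrome P450 that oxidises steroids and aromatic hydrocarbons, had 28963 counts in the SETDB2 library and 21015 in the control, a log2 ratio of 0.46 (0.43 to 0.48). The antisense gene held under 1% of that pair's counts in each library, and 40.1% of its bases lie in opposite introns. GATA2-AS1 had 335 counts in the SETDB2 library and 233 in the control, a log2 ratio of 0.52 (0.27 to 0.76). The transcription factor gene GATA2 had 1532 counts in the SETDB2 library and 1247 in the control, a log2 ratio of 0.29 (0.18 to 0.40). ZFAS1 had 1102 counts in the SETDB2 library and 1393 in the control, a log2 ratio of -0.34 (-0.46 to -0.23). Its partner ZNFX1, an interferon-stimulated helicase that senses viral RNA, had 6574 counts in the SETDB2 library and 8233 in the control, a log2 ratio of -0.33. ZFAS1 held 14.4% of the pair's counts in the SETDB2 library and 14.5% in the control, so the shares overlapped.

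The starts of 4 genes that are head-to-head in GENCODE are shown from RefSeq (GRCh38.p14). Their pairs show some of the outcomes seen, but none has intervals on opposite sides. LBX2-AS1 and ZFAS1 were lower with the partner, GATA2-AS1 was higher with it, and THAP9-AS1 was even beside a partner that was higher. RefSeq windows run from 250 bases before a start to 50 after it. They are given 5′ to 3′ on the antisense gene's strand, less any base of an annotated UTR. Capitals mark matches on either strand to the GC box GGGCGG, to the CCAAT box, to the TATA box TATAAA or to the core of the interferon response element. The windows are chr2:74502343-74502642 plus, chr20:49278427-49278691 plus, chr3:128488953-128489252 plus and chr4:82900867-82901082 minus, in the order printed. The RefSeq start of ZFAS1 lies 464 bases from the GENCODE start. That is past the ZNFX1 start, so this pair overlaps by the GENCODE start only. The other starts lie within 44 bases.
LBX2-AS1: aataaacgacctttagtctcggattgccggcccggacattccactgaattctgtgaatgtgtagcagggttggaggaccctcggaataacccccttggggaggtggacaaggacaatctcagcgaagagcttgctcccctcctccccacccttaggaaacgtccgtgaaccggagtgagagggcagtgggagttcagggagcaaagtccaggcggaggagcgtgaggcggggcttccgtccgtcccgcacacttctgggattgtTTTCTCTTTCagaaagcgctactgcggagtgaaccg
ZFAS1: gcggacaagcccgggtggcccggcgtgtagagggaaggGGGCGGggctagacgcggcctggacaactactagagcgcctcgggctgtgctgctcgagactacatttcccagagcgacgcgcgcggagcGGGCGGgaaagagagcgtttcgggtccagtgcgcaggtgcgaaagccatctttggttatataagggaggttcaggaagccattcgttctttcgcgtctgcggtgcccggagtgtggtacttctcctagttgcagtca
GATA2-AS1: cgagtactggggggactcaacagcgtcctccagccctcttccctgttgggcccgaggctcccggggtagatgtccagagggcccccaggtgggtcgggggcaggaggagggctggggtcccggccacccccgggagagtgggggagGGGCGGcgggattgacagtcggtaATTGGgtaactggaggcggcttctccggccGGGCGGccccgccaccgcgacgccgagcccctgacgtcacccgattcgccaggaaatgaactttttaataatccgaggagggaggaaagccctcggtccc
THAP9-AS1: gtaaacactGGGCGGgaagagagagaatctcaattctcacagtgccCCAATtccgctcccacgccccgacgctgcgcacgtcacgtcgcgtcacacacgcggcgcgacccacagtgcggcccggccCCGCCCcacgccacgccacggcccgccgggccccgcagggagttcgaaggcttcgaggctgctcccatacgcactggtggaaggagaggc
LBX2-AS1 held a single match, to the interferon response core, and the other 3 windows held 2 GC boxes each, with 1 CCAAT in GATA2-AS1 and 1 in THAP9-AS1. Windows were found for 68 of the 184 genes. GGGCGG stood in 39 of them (57.4%) beside 44.9% of all 34943 RefSeq windows, CCAAT in 29 (42.6%) beside 34.6%, TATAAA in 3 (4.41%) beside 11.6%, and the interferon response core in 2 (2.94%) beside 3.57%. Median GC content was 63.7% in the 68 windows and 58.7% in all windows. In 43 of the 68 windows the RefSeq start lies within 100 bases of the GENCODE start, and in the rest it lies farther off. A match describes the letters of the window only.

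Taking all pairs whose partner had 200 counts or more (n = 136), the ratios of antisense gene and partner were loosely related. Their rank correlation was 0.30, and it was 0.17 with the GC trend removed from both. The points share the same libraries and neighbouring sequence, so the value is a description. Over 1389 opposite-strand overlapping pairs with no antisense-class gene it was 0.20, and 0.09 with the GC trend removed. Head-to-head pairs had 0.36 (n = 63), pairs with the antisense gene inside 0.32 (n = 35) and tail-to-tail pairs 0.16 (n = 31). The 7 pairs with the partner inside had 0.43, which was 0 with the GC trend removed. Both genes were lower in 60 pairs and both higher in 28, and the signs differed in 48.

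Both intervals lay below 0 in 21 pairs (15.4%) and above 0 in 7 (5.15%), and they lay on opposite sides in 7 (5.15%). Among 621 other opposite-strand pairs whose lower gene had under 1000 counts these shares were 9.18%, 6.92% and 7.41%. The 136 pairs had no such upper limit and held a single partner for each antisense gene, whereas the other pairs include every overlap. Over all 1389 other pairs, 131 had both intervals below 0, 142 had both above 0 and 158 had them on opposite sides. The 21 pairs share partners, since 2 of them involve BCAN and 2 ANKRD11. MSC-AS1 and MSC, which encodes the transcription factor musculin, were among the 21, with 1096 counts in the SETDB2 library against 1411 in the control for MSC-AS1, and 1397 against 1722 for MSC. So were TMEM147-AS1 with TMEM147 (ratios of -0.31 and -0.26) and MYHAS with the myosin gene MYH1 (-0.41 and -0.43). The 7 higher pairs included LOXL1-AS1 with LOXL1, a collagen and elastin crosslinking enzyme (0.29 and 0.18), and AC099850.3 with PRR11 (0.40 and 0.28). AC099850.3 had 446 counts in the SETDB2 library and 336 in the control, and 69.8% of its bases lie in opposite introns.

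**Figure D5:**
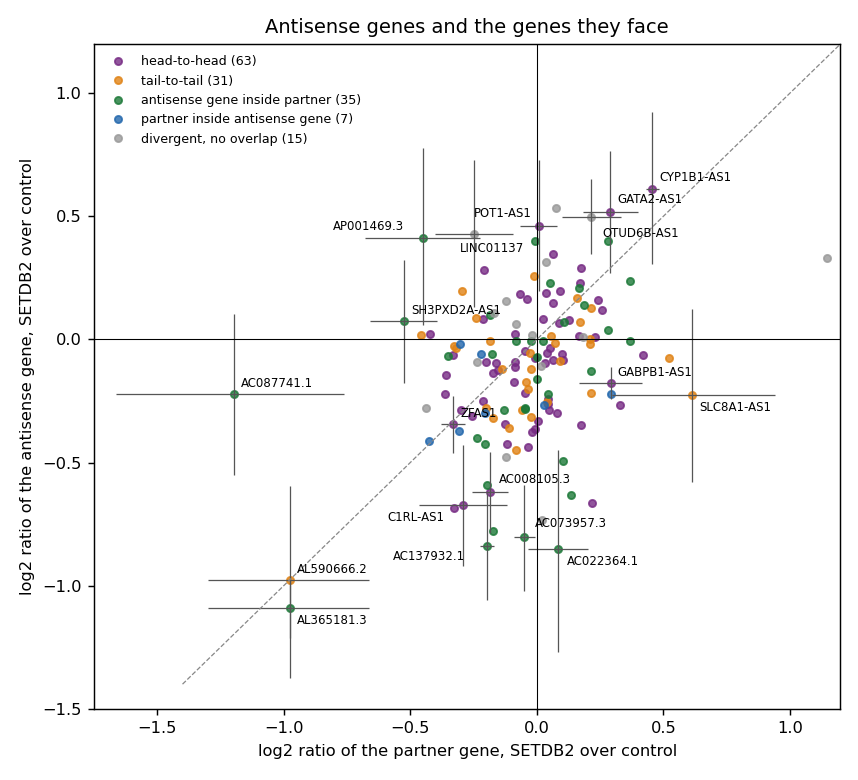
Log2 ratio of the antisense gene (vertical axis) against that of the gene it faces (horizontal axis), SETDB2 over control, for partners with 200 counts or more; colours give the arrangement, bars on labelled genes the 95% counting interval, and the dashed line equal ratios. Both BCAN pairs stand at the lower left near the dashed line, CYP1B1-AS1 at the upper right, and AP001469.3 and LINC01137 at the upper left.

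Several antisense genes inside a partner had lower ratios than the partner. AC073957.3, inside SUN1, which encodes a nuclear envelope protein, had 284 counts in the SETDB2 library and 494 in the control, a log2 ratio of -0.80 (-1.02 to -0.59). SUN1 had 8872 counts in the SETDB2 library and 9140 in the control, a log2 ratio of -0.05. AC137932.1, wholly in introns of the chromatin regulator gene ANKRD11, had 274 counts in the SETDB2 library and 488 in the control, a log2 ratio of -0.84. AC137932.3, in the same gene, had 154 and 231 in the same order, a log2 ratio of -0.59 (-0.90 to -0.29), and ANKRD11 itself stood at -0.20 on 20370 and 23231 counts. AC022364.1, inside the Golgi protein gene CCDC91, had 80 counts in the SETDB2 library and 144 in the control, a log2 ratio of -0.85 (-1.27 to -0.45), beside 0.08 for CCDC91. Over 60% of the bases of each of these genes lie in introns of the partner, so the counts do not say which strand was transcribed.

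Among head-to-head pairs, AC008105.3 had 505 counts in the SETDB2 library and 773 in the control, a log2 ratio of -0.62 (-0.79 to -0.46). Its partner FMNL1, a formin that assembles actin, stood at -0.19. C1RL-AS1 had 228 counts in the SETDB2 library and 362 in the control, a log2 ratio of -0.67 (-0.92 to -0.43), beside -0.29 for the complement-like protease gene C1RL. POT1-AS1 went the other way, with 281 counts in the SETDB2 library and 203 in the control, a log2 ratio of 0.46 (0.20 to 0.73). POT1, a telomere-binding protein gene that starts 110 bases away, had 3074 and 3044 counts in the same order, a log2 ratio of 0.01. AP002478.1, inside DLGAP1, had the highest ratio of the 184, with 153 counts in the SETDB2 library and 98 in the control, a log2 ratio of 0.63 (0.26 to 1.02), while DLGAP1 had 6 and 5.

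Members with no overlapped gene start within 1000 bases of a divergent one in 15 of 22 cases, and these pairs were set side by side after values had been seen. OTUD6B-AS1 starts 7 bases from the deubiquitinase gene OTUD6B. It had 849 counts in the SETDB2 library and 598 in the control, a log2 ratio of 0.50 (0.35 to 0.65), beside 1314 and 1126 for OTUD6B, a log2 ratio of 0.22 (0.10 to 0.33). AC009113.1, beside the zinc finger gene ZNF778, had 147 counts in the SETDB2 library and 101 in the control, a log2 ratio of 0.53 (0.16 to 0.91), and ZNF778 stood at 0.07. LINC01137 had 222 counts in the SETDB2 library and 164 in the control, a log2 ratio of 0.43 (0.13 to 0.73). ZC3H12A, which encodes an RNase that degrades inflammatory mRNAs and starts 141 bases away, had 646 counts in the SETDB2 library and 764 in the control, a log2 ratio of -0.25 (-0.40 to -0.10). BOLA3-AS1, by contrast, had 94 and 156 counts in the SETDB2 and control libraries, a log2 ratio of -0.73 (-1.12 to -0.36), beside 0.02 for the iron-sulphur cluster gene BOLA3 only 15 bases away.

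The balance within a pair needs no scaling between libraries. Where the antisense gene's bases lie in introns of the partner, the share does not separate its RNA from unspliced RNA of the partner. The antisense gene's share of the pair's counts had non-overlapping 95% binomial intervals in 25 of the 136 pairs (18.4%). Of the other opposite-strand pairs with a lower gene under 1000 counts, 20.6% did. Without that limit, which the 136 pairs did not have, 427 of 1389 other pairs did. The antisense gene's share was higher in the SETDB2 library in 6 of the 25 and lower in 19. This split was not taken for the other pairs. Over the 136 pairs the median log2 ratio was -0.09 for the antisense genes and -0.02 for the partners. Among all overlapped pairs whose share intervals do not overlap, partners under 200 counts included, 8 with the largest gaps are given. In 4 of the 8, the interval of the antisense gene's own ratio included 0. AC087741.1, with 148 counts in the SETDB2 library and 172 in the control, held 70.8% of its pair in the SETDB2 library and 55.1% in the control, where CARD14, an activator of NF-kappaB in skin, had 61 counts in the SETDB2 library and 140 in the control. AC021054.1 had 142 counts in the SETDB2 library and 148 in the control, where the adhesion gene NINJ2 had 29 and 4 in the same order, so the interval of its share was 76.6 to 88.3% in the SETDB2 library and 93.4 to 99.3% in the control. SLC8A1-AS1, with 127 and 148 counts in the same order, held 37.9% in the SETDB2 library and 52.3% in the control, where the sodium-calcium exchanger gene SLC8A1 had 208 and 135. SH3PXD2A-AS1, with 276 and 261, held 25.5% in the SETDB2 library and 18.4% in the control, where SH3PXD2A, a podosome scaffold, had 807 and 1157. Of the bases of SH3PXD2A-AS1, 100% lie in SH3PXD2A introns, so its counts cannot be told apart from unspliced RNA of that gene.

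In the other 4 of these pairs the intervals of both genes excluded 0. AC092834.1, inside the metabolic coactivator gene PPARGC1A, had 116 counts in the SETDB2 library and 174 in the control, while PPARGC1A had 36 and 18. AP001469.3 had 154 counts in the SETDB2 library and 115 in the control, against 280 and 381 for the antisense gene MCM3AP-AS1 that it faces, so its share was 35.5% (31.0 to 40.2) in the SETDB2 library and 23.2% (19.5 to 27.2) in the control. MCM3AP-AS1 itself had a log2 ratio of -0.45 (-0.68 to -0.22), beside -0.08 for its coding partner MCM3AP. AC009948.1 held 45.2% of its pair in the SETDB2 library and 52.7% in the control, with ratios of -0.22 for it and 0.21 for PRKRA, which encodes an activator of the double-stranded RNA kinase. Of the bases of AC009948.1, 52.9% lie in PRKRA introns. GABPB1-AS1 had 3637 counts in the SETDB2 library and 4095 in the control, and GABPB1, a subunit of an ETS-family transcription factor, 1156 and 940. The log2 ratios were -0.18 (-0.24 to -0.11) and 0.29 (0.17 to 0.42), so they lay on opposite sides with high counts on both. Beyond these 8 pairs, KTN1-AS1 had 122 counts in the SETDB2 library and 193 in the control, beside 14704 and 12588 for the kinectin gene KTN1. FLG-AS1, which encloses the filaggrin gene, had 501 and 581 in the same order, beside 2970 and 2411 for FLG. AC010761.1 with RPL23A and AC015849.3 with TAF15 were also opposed, the antisense gene being lower in the SETDB2 library in both. THAP9-AS1 held 88.6% in the SETDB2 library and 91.6% in the control, since THAP9, a gene derived from a DNA transposon, had 337 counts in the SETDB2 library and 251 in the control. AFAP1-AS1, with 91.3% of its bases in AFAP1 introns, held 70.6% in the SETDB2 library and 66.2% in the control. AFAP1, an actin-binding adaptor, had 2210 and 2760.

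Compared per unshared length, the antisense gene had the lower level in most pairs whose partner had 200 counts or more. The ratio of its level to the partner's, averaged over both libraries, had a median of 0.286 over 136 pairs, with the middle of the range from 0.128 to 0.807. The antisense level exceeded the partner's in 31 of them. In the 26 pairs whose partner had fewer counts, it was above the partner's in 21, and in 3 no level ratio could be given. VIM-AS1 was at 0.0177 of the level of vimentin and CYP1B1-AS1 at 0.00611 of that of CYP1B1. At the other end, FGD5-AS1 stood at 3.82 times the level of the nuclear receptor gene NR2C2, and AFAP1-AS1 at 3.18 times that of AFAP1. SNHG7 stood at 32.2 times that of FAM69B, whose own summed count was 79. For AFAP1-AS1, 91.3% of the bases lie in AFAP1 introns, so its counts cannot be told apart from unspliced RNA of AFAP1.

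Of the well-studied antisense RNAs listed, 18 were among the 184 genes, with 9 above and 9 below 0 and a median log2 ratio of -0.01. None was 1.5-fold apart. Intervals lay below 0 for 4 (MCM3AP-AS1, ZFAS1, SBF2-AS1 and HCG18) and above 0 for 2 (LOXL1-AS1 and UBA6-AS1). Such intervals, below and above 0, made up 28.8% and 9.24% of the 184 genes and 25.9% and 29.1% of all genes. Over all gene classes, 29 of the 65 listed genes had 200 counts or more, with 8 intervals below 0 and 4 above. LOXL1-AS1 had 323 counts in the SETDB2 library and 263 in the control, UBA6-AS1 430 and 360, and SBF2-AS1 172 and 213 in the same order. The imprinted KCNQ1OT1 had 225 counts in the SETDB2 library and 200 in the control, a log2 ratio of 0.16 (-0.12 to 0.45), and KCNQ1, the potassium channel gene around it, had 3 and 2. NRAV, described as a brake on antiviral genes, had 345 counts in the SETDB2 library and 334 in the control, a log2 ratio of 0.04 (-0.18 to 0.26). VIM-AS1 had 170 and 168, ZEB1-AS1 176 and 153 and HOXA-AS2 123 and 134 in the same order. NNT-AS1 had 821 and 772, SLC16A1-AS1 1017 and 1036, ASB16-AS1 186 and 164, and TRAF3IP2-AS1 136 and 160 in the SETDB2 and control libraries. The intervals of these 7 included 0.

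By class of partner, 13 members faced zinc finger genes, with a median log2 ratio of -0.06 and 9 below 0. There were 2 members facing HOX genes, and ZFAS1 was the only one facing a gene of the interferon-stimulated list. The 4 hosts of small nucleolar RNAs had a median of 0.11, with 3 above 0 and ZFAS1 below.

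The machinery that removes or reads such RNAs was looked at beside them. All 42 listed genes of the nuclear exosome, which degrades antisense and promoter-upstream transcripts, and its adaptors were measured at 200 counts or more, with a median log2 ratio of 0.03 and none past 2-fold. The largest were INTS8, a subunit of Integrator (0.48), and EXOSC7, a core exosome subunit (-0.34). Intervals lay above 0 for 17 of the 42 (40.5%) and below 0 for 7 (16.7%). Over all genes these shares were 29.1% and 25.9%, and over genes with 1000 counts or more 33.5% and 26.4%. Of 26 measured genes for double-stranded RNA binding and RNA interference the median was 0.00. Intervals lay above 0 for 8 (30.8%) and below 0 for 6 (23.1%), near the shares over all genes. In this list 1 gene was 2-fold lower, beside 0.382% of all genes. This was DHX58, which encodes the RNA sensor LGP2, with 230 counts in the SETDB2 library and 568 in the control, a log2 ratio of -1.31 (-1.54 to -1.09). IFIH1, the sensor MDA5 of long double-stranded RNA, had 774 counts in the SETDB2 library and 1437 in the control, a log2 ratio of -0.90 (-1.03 to -0.77). DDX58, the sensor RIG-I, had 3175 counts in the SETDB2 library and 4184 in the control, a log2 ratio of -0.40. The helicase gene DHX9 was higher, with 13262 counts in the SETDB2 library and 10923 in the control, a log2 ratio of 0.27 (0.24 to 0.31).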

How the data were processed

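For each of 2 libraries the authors deposited unnormalised read counts and, in a second table, FPKM for each gene, which made 4 tables. Per the submitters' processing notes, TopHat2 2.0.9 and Bowtie2 2.0.6 were used, as were Cuffdiff 2.1.1 and Cufflinks 2.1.1, with no role given. Neither the counting program nor its strand setting is given in the sources used here.

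Scaling used the TMM factors of edgeR 4.0.16 in R 4.3.3. Log2 ratios, SETDB2 over control, used a prior count of 0.5. With 1 library per group no test was run, and a gene counted as 2-fold apart where the ratio reached 2-fold and the 95% counting interval excluded equality. Exon models came from GENCODE 29 (GRCh38), which matched the tables' coordinates for all 58735 genes. The partner is the overlapped opposite-strand gene with the highest summed count. Calls and intervals were run on simulated counts that held counting error only, so the spread between cultures was not covered.

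Named members are the 10 with the highest counts, the 8 highest and 8 lowest by interval bound, any past 2-fold, those on a list of well-studied antisense RNAs, and, among overlapped pairs whose share intervals do not overlap, the 8 with the largest gap in share. AC137932.3, TMEM147-AS1, MYHAS, KTN1-AS1, FLG-AS1, AC010761.1, AC015849.3, BOLA3-AS1, AC005291.2 and the genes at the count limit were added after their values were seen. Members, partners and lists were chosen with earlier results of these data known. Alternatives were DESeq2 1.42.0 size factors, total counts, a prior count of 2, other folds and count limits, removal of the GC trend (LOWESS, statsmodels 0.14.6), less exon overlap, the partner with the longest overlap, and the deposited FPKM on the log2(FPKM + 0.1) scale.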

Additional observations from a re-analysis of the deposited data

How the results depend on the processing

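No paired analysis was possible because each group held 1 library, and for the same reason no library could be left out. The members' median log2 ratio stayed below 0, between -0.10 and -0.05, under each setting tried, and the single 2-fold lower gene, AL365181.3, was called under each scaling, prior count and unit. At 1.5-fold, 2 members were higher and 16 lower. With a summed count of 100 or more, 6 of 364 genes were 2-fold higher, 7 were 2-fold lower and 215 were below 0. With a limit of 500, 45 of 73 were below 0, and with a limit of 1, 120 of 2948 were 2-fold higher, 172 were lower and 1664 were below 0. A lower limit adds genes with few counts, and a higher one leaves fewer genes. The shares over all genes were not taken at the limits of 100, 500 and 1. The counts at these limits therefore do not show anything particular to antisense genes. Among the 117 members with under 10% of bases in opposite exons, 0 were 2-fold lower and 67 were below 0, as AL365181.3 has just over that overlap. Removing the GC trend, which was chosen for pairs after seeing the data, lowered the rank correlation of antisense gene and partner to 0.17. It was 0.25 with the longest-overlap partner (n = 116) and 0.26 without the BCAN and CYP1B1 pairs. Of 45 named ratios, 3 moved by more than their counting error, all with the GC trend removed: SNHG7 to 0.23, GABPB1-AS1 to -0.25 and FGD5-AS1 to -0.04, where it changed sign. With that trend removed, NNT-AS1 (-0.03), PSMA3-AS1 (-0.03) and VIM-AS1 (-0.10) changed sign too, within their counting error. VIM-AS1 also did so with total counts. The counting interval reached a median of 0.30 to either side over the 184 genes, and less for genes with more counts.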
